A study of Mus musculus with 21 samples.

Results

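Small RNAs were compared between pituitaries of virgin *Zeb1 200H* and WT female mice, which make up 7 of the 21 libraries in the series. The members are the 4 *Zeb1 200H* libraries (replicates 1, 2, 3, and 4) and the 3 WT libraries (replicates 1, 2, and 4) of the virgin cohort, taken by their labels, with all 1909 miRNAs of the deposited count table. *Zeb1 200H* mice are heterozygous for a knock-in allele of *Zeb1* whose binding sites for miR-200a and miR-200b in the 3′ untranslated region are mutated, and WT mice carry no such allele. All 7 mice were females of strain C57BL/6J aged 8 to 12 weeks, and the study staged this cohort for proestrus. The knock-in mice descend from 2 embryonic stem cell clones, and the labels do not say which clone each library came from. The allele is present in every tissue, and each library holds a whole pituitary with all its cell types. The labels give 3 μg of total RNA for each library and the methods of the study give 2 μg.

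MiRNAs of the miR-200 superfamily bind the 3′ untranslated region of *Zeb1* mRNA and lower ZEB1, and ZEB1 in turn binds the promoters of both miR-200 clusters and represses them. This loop of mutual repression is known for separating epithelial from mesenchymal states, and miR-200 is abundant in epithelial tissue and in the endocrine pituitary. A miRNA recognises its targets mainly through its seed, bases 2 to 8 from the 5′ end, so miRNAs that share a seed form a family.

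Counted reads came to 3816917, 10806313, and 9029142 in WT replicates 1, 2, and 4, and to 10266419, 9698685, 10082073, and 8551806 in *Zeb1 200H* replicates 1 to 4. Levels are in CPM, counted reads scaled to the same total in every library. A single count was 0.262 CPM in WT replicate 1 and between 0.0925 and 0.117 CPM in the others. WT replicate 1 stood apart from the other 6 libraries. It held 836 detected miRNAs, compared with 1040 to 1079 elsewhere, and 58.1% of its reads belonged to its top 10 miRNAs, a share between 47.3% and 51.5% in the others. Its TMM factor, edgeR's correction for composition, was 0.640, whereas the others lay between 1.00 and 1.14. Results are therefore given with and without it. CPM use counted reads alone, whereas fold changes include the TMM factors.

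The edgeR quasi-likelihood test covered 672 miRNAs and called 34, or 5.06%, at a Benjamini-Hochberg adjusted p below 0.05. Of these, 11 were higher in *Zeb1 200H* (1.64% of those tested) and 23 were lower (3.42%). Decreases included every tested arm of both miR-200 clusters and of the miR-183, miR-96, and miR-182 cluster, with miR-205-5p and miR-31-5p, which are all epithelial miRNAs. Among the 11 increases, miR-124-3p.1, a neuronal miRNA, had the largest log2 fold change. With WT replicate 1 left out, 699 miRNAs were tested and 151 called (21.6%), 74 higher (10.6%) and 77 lower (11%), and these included all 34. Other settings that kept WT replicate 1 gave from 18 calls, with a replicate block in edgeR, to 152, by limma with quality weights, and DESeq2 gave 66. The replicate block left out *Zeb1 200H* replicate 3, which has no WT library of the same number. By level alone, the split depended on the scaling. In CPM, 191 of 672 miRNAs (28.4%) were higher in every *Zeb1 200H* library than in every WT library, and 32 (4.76%) were lower. In CPM divided by the TMM factors, which raise WT replicate 1, these were 96 (14.3%) and 78 (11.6%), and all 34 called miRNAs were among them. The call of 21 of the 34, 5 higher and 16 lower, was kept whichever library was left out. The other 13, 6 higher and 7 lower, were each lost without at least 3 of the 7 libraries taken in turn. Leaving out *Zeb1 200H* replicates 1, 2, 3, and 4 in turn gave 21, 21, 22, and 22 calls. Groups of libraries whose CPM do not overlap are called separate below, and orders of libraries are in CPM.

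**Figure D1:**
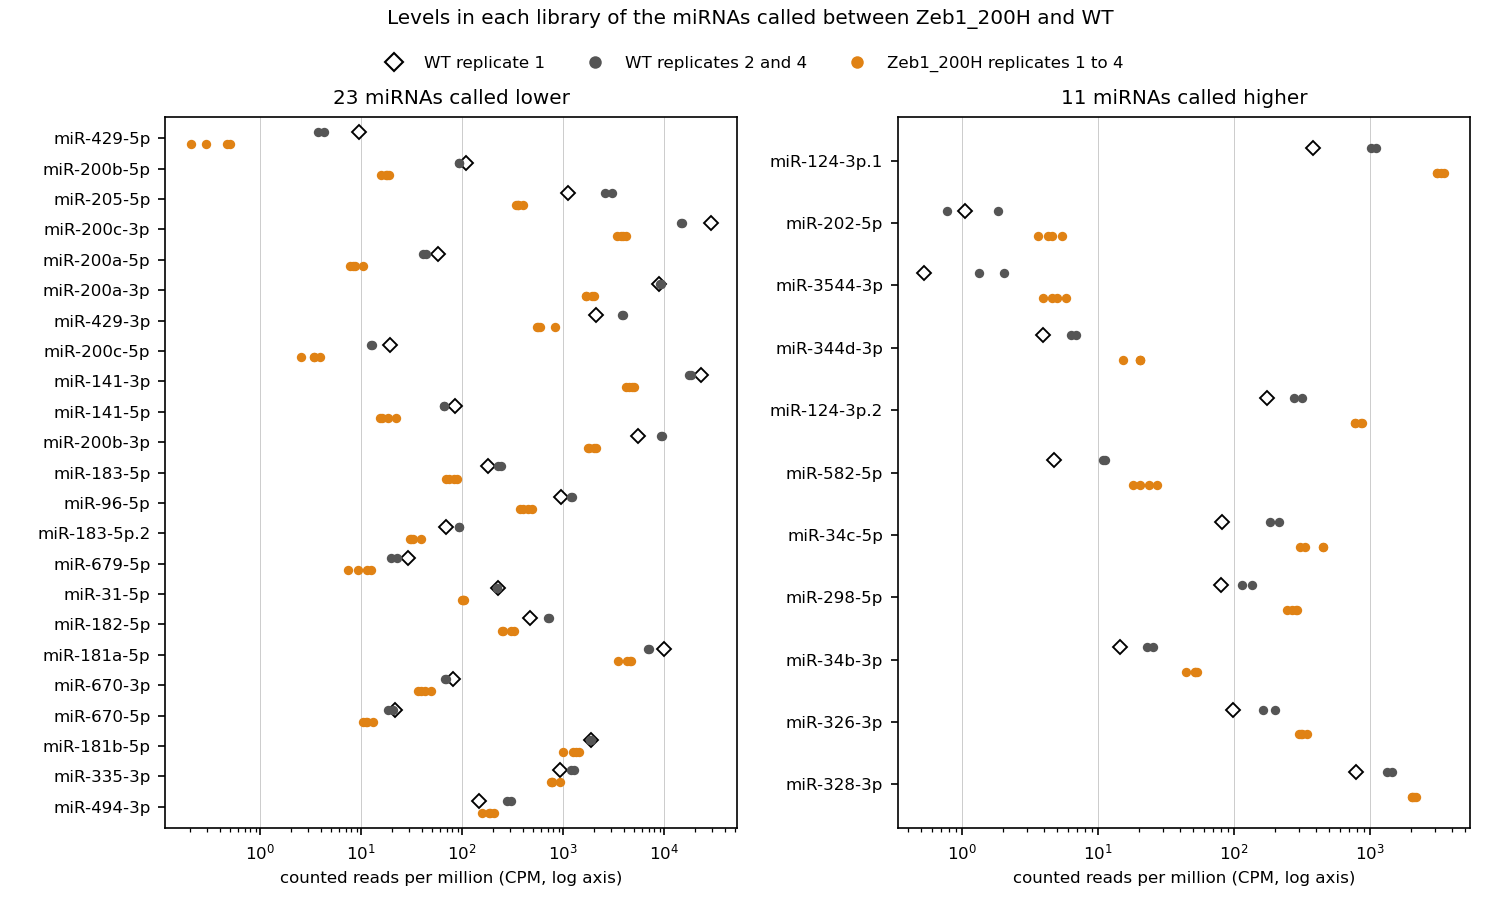
CPM (log axis) of the 34 called miRNAs in each library, with 1 symbol per library, lower on the left and higher on the right. The *Zeb1 200H* libraries reach the level of WT replicate 1 for miR-335-3p and miR-494-3p, and for the other 32 the groups are separate.

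The guide strands of the miR-200 superfamily fall into 2 seed families. They are shown because the allele removes *Zeb1* sites for miR-200a and miR-200b and because every strand of this superfamily was called. The first 3 share the seed AAUACUG and the last 2 share AACACUG. Mature sequences are from RefSeq (GRCm38.p6), written 5′ to 3′ with the seed in capitals, and 65 of the 81 miRNAs chosen for description had an entry there.
miR-200b-3p: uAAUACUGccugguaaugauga
miR-200c-3p: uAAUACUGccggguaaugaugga
miR-429-3p: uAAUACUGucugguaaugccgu
miR-200a-3p: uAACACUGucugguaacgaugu
miR-141-3p: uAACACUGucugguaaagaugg

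MiR-200b-3p measured 5518, 9584, and 9305 CPM in WT replicates 1, 2, and 4, and 2008, 1774, 2116, and 1801 CPM in *Zeb1 200H* replicates 1 to 4. All *Zeb1 200H* libraries lay below the lowest WT library, which was WT replicate 1. In the same order of libraries, miR-429-3p measured 2124, 3881, and 3852 CPM against 587, 551, 824, and 563 CPM. The groups did not overlap, WT replicate 1 was again the lowest of its group, and *Zeb1 200H* replicate 3 was the highest of its own. MiR-200a-3p, from the same cluster of hairpins, measured 8849, 9176, and 9377 CPM in WT and 1943, 1687, 1998, and 1692 CPM in *Zeb1 200H*. Its WT libraries were close to each other and all above every *Zeb1 200H* library.

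The other cluster showed the same separation, but with WT replicate 1 at the top of its group. MiR-200c-3p measured 29293, 14633, and 15114 CPM in WT and 3951, 3395, 4148, and 3721 CPM in *Zeb1 200H*. WT replicate 1 exceeded the other WT libraries by far, and all 3 WT libraries exceeded all *Zeb1 200H* libraries. MiR-141-3p measured 23009, 18509, and 17702 CPM in WT and 4771, 4185, 5055, and 4478 CPM in *Zeb1 200H*, again with WT replicate 1 highest and no overlap. In bulk pituitary, fewer cells that express a miRNA and less of it per cell cannot be told apart.

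Summed over its guide and passenger arms, the cluster of miR-200b, miR-200a, and miR-429 held 16667, 22778, and 22675 CPM in WT and 4565, 4037, 4969, and 4079 CPM in *Zeb1 200H*. The cluster of miR-200c and miR-141 held 52407, 33220.2, and 32894 CPM in WT and 8740.2, 7603, 9229, and 8217 CPM in *Zeb1 200H*. For both sums the groups were separate. The miR-200c cluster exceeded the miR-200b cluster by a ratio of 3.14 in WT replicate 1 and of 1.46 and 1.45 in WT replicates 2 and 4. In *Zeb1 200H*, the ratios were 1.91, 1.88, 1.86, and 2.01, above those of WT replicates 2 and 4 and below that of WT replicate 1. Whether the ratio differs between genotypes was not tested.

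Counted as families, the seed AAUACUG summed to 36936, 28098, and 28272 CPM in WT and 6546, 5719.7, 7088, and 6084 CPM in *Zeb1 200H*. All WT libraries lay far above all *Zeb1 200H* libraries. Its log2 fold change was −2.71 (standard error, SE, 0.270, adjusted p = 3.96e-04 by Benjamini-Hochberg in edgeR), and −2.28 without WT replicate 1. The seed AACACUG summed to 31858, 27685, and 27078 CPM in WT and 6714, 5872, 7054, and 6169 CPM in *Zeb1 200H*, with the WT libraries close together and no overlap. This family fell by 2.57 (SE 0.235, adjusted p = 2.50e-04 by Benjamini-Hochberg in edgeR), and by 2.22 without WT replicate 1. Both family calls were kept whichever library was left out.

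WT replicate 1 moved the guide strands by different amounts. For miR-200c-3p, the log2 fold change was −2.86 with it and −2.09 without it. For miR-141-3p, these were −2.51 and −2.10. Both guide strands of the miR-200c cluster thus had smaller decreases once it was left out. MiR-200b-3p stayed near its value, at −2.38 and −2.42, as did miR-429-3p, at −2.67 and −2.74. MiR-200a-3p lay between these cases, at −2.69 and −2.47.

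The passenger arms of the same hairpins, usually degraded after the guide is loaded, were far scarcer than the guides. Their sequences are shown because the 5p arms of miR-200b and miR-200a share the seed AUCUUAC, which makes them a called family of their own, whereas the other 3 each have a different seed.
miR-200b-5p: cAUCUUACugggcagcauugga
miR-200a-5p: cAUCUUACcggacagugcugga
miR-200c-5p: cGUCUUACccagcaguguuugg
miR-141-5p: cAUCUUCCagugcaguguugga
miR-429-5p: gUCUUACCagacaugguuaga

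MiR-200b-5p, the most abundant of them in WT, measured 109, 92.5, and 92.7 CPM in WT and 17.9, 17.4, 18.9, and 15.7 CPM in *Zeb1 200H*. MiR-141-5p measured 85.1, 65.5, and 66.2 CPM in WT and 16.0, 18.6, 22.2, and 15.2 CPM in *Zeb1 200H*. MiR-200a-5p measured 57.4, 41.3, and 44.0 CPM in WT and 8.77, 8.35, 10.5, and 7.72 CPM in *Zeb1 200H*. WT replicate 1 was the highest WT library for each, and no *Zeb1 200H* library reached a WT library. MiR-200c-5p, at 19.4, 12.7, and 12.4 CPM in WT and 2.53, 3.92, 3.37, and 3.39 CPM in *Zeb1 200H*, was separate as well. MiR-429-5p, the scarcest, measured 9.43, 3.70, and 4.32 CPM in WT and 0.292, 0.206, 0.496, and 0.468 CPM in *Zeb1 200H*, where the level behind 3 counts is 0.351 CPM or less, so its *Zeb1 200H* values rest on a few reads each. It passed the filter on low counts by its WT levels alone, with no *Zeb1 200H* library at the 1.03 CPM that the filter set, and its log2 fold change was −4.27 with all libraries and −3.54 without WT replicate 1.

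The AUCUUAC family of miR-200b-5p and miR-200a-5p summed to 166, 134, and 137 CPM in WT and 26.7, 25.8, 29.5, and 23.4 CPM in *Zeb1 200H*, with no overlap. Its log2 fold change was −2.87 (SE 0.257, adjusted p = 2.50e-04 by Benjamini-Hochberg in edgeR), and −2.49 without WT replicate 1. Over all 6 arms of the miR-200b cluster, the median log2 fold change was −2.76, and −2.50 without WT replicate 1, and without miR-429-5p these were −2.69 and −2.47. Over the 4 arms of the miR-200c cluster, it was −2.53, and −2.07 without WT replicate 1. The median of all tested miRNAs was 0.01 in both cases.

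A further cluster, of miR-183, miR-96, and miR-182, is best known from sensory epithelia such as the inner ear and retina. Its guides are shown because all were called and because their seeds overlap but are not identical, so they count as separate families.
miR-183-5p: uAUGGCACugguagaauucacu
miR-96-5p: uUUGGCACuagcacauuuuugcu
miR-182-5p: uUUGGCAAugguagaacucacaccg

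MiR-96-5p, the most abundant of the cluster, measured 955, 1200.5, and 1233 CPM in WT and 486, 449, 398, and 373 CPM in *Zeb1 200H*. MiR-182-5p measured 466, 705, and 728 CPM in WT and 327, 303, 251, and 250.2 CPM in *Zeb1 200H*. MiR-183-5p measured 178, 226, and 243 CPM in WT and 83.8, 88.9, 73.3, and 69.3 CPM in *Zeb1 200H*. In each case WT replicate 1 was the lowest WT library and still lay above all *Zeb1 200H* libraries. The dictionary also lists miR-183-5p.2, a variant read with another 5′ end, at 69.4, 93.6, and 93.8 CPM in WT and 32.3, 39.4, 31.3, and 30.3 CPM in *Zeb1 200H*. Of the 7 entries listed for this cluster, 4 passed the filter on low counts and all 4 fell, compared with 3.42% of all tested miRNAs. The 2 reads of miR-183-5p among them come from the same arm, so the 4 entries stand for 3 arms. The cluster's sum was 1669, 2227, and 2300.2 CPM in WT and 929, 881, 754, and 724 CPM in *Zeb1 200H*. Its median log2 fold change was −1.72, and −1.63 without WT replicate 1, so that library moved this cluster little.

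MiR-205 and miR-31 are epithelial miRNAs encoded away from these clusters, and miR-205 also targets *Zeb1* mRNA. Both arms of each are shown because the arms of a hairpin were called under different settings.
miR-205-5p: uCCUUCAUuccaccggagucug
miR-205-3p: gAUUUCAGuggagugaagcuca
miR-31-5p: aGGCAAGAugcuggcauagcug
miR-31-3p: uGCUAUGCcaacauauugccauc

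MiR-205-5p measured 1102, 2599, and 3033 CPM in WT and 359, 342, 396, and 359.8 CPM in *Zeb1 200H*. The *Zeb1 200H* libraries were close together, and the lowest WT library, replicate 1, was still well above them. Its log2 fold change went from −2.88 (SE 0.197) to −3.08 without WT replicate 1. The passenger arm miR-205-3p had 1.83, 1.02, and 2.10 CPM in WT and 0.0974, 0, 0.0992, and 0 CPM in *Zeb1 200H*. It was listed at 0 in *Zeb1 200H* replicates 2 and 4, where 3 counts would be 0.309 and 0.351 CPM, and it was not tested in all 7 libraries. It passed the filter on low counts by its WT levels without WT replicate 1, where edgeR called it lower. If *Zeb1 200H* replicate 1 or replicate 3 was left out as well it was not tested, and DESeq2 gave it no adjusted p.

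MiR-31-5p measured 226, 221, and 219 CPM in WT and 102, 103, 101, and 99.4 CPM in *Zeb1 200H*. Within each group the libraries were nearly equal, and the groups were far apart. MiR-31-5p fell by 1.51 (SE 0.198), and by 1.24 without WT replicate 1. MiR-31-3p measured 13.4, 31.2, and 30.1 CPM in WT and 17.2, 19.7, 19.4, and 16.0 CPM in *Zeb1 200H*. WT replicate 1 lay below all *Zeb1 200H* libraries and WT replicates 2 and 4 above them, whereas after division by the TMM factors all WT libraries were above. With all libraries it was not called (−0.74, adjusted p = 0.0652 by Benjamini-Hochberg in edgeR), and without WT replicate 1 it was (−0.89, adjusted p = 4.05e-04 by Benjamini-Hochberg in edgeR). The *Mir31* hairpin lies on the minus strand of chromosome 4, from 88910557 to 88910662.

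The list of other epithelial miRNAs, which holds both arms of miR-205 and miR-31 among its 16 members, had 12 tested, of which 2 were lower. The 2 (16.7%, compared with 3.42% of all tested miRNAs) were miR-205-5p and miR-31-5p, and the list's median log2 fold change was −0.32. DESeq2 and limma each called 6 lower with all libraries. Without WT replicate 1, 13 were tested and 7 were lower (53.8%, compared with 11% of all tested miRNAs), with a median of −0.36. Not counting miR-205-3p, which passed the filter by its WT levels, gave 12 tested and 6 lower, with a median of −0.33. The largest member by level was miR-375-3p, a miRNA of endocrine cells in the pancreatic islet and pituitary. MiR-375-3p measured 145158, 103399, and 108188 CPM in WT and 84653, 86094, 96962, and 80722 CPM in *Zeb1 200H*. All *Zeb1 200H* libraries were lower than all WT libraries, with WT replicate 1 far above the rest. It was not called with all libraries (−0.88, adjusted p = 0.140 by Benjamini-Hochberg in edgeR), and it fell without WT replicate 1 (−0.41, adjusted p = 0.00174 by Benjamini-Hochberg in edgeR).

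Increases were led by miR-124, the most abundant miRNA of mature neurons. The dictionary splits its guide into 2 reads with different 5′ ends. MiR-124-3p.1 measured 383, 1019.8, and 1113 CPM in WT and 3089, 3073, 3333, and 3487 CPM in *Zeb1 200H*. WT replicate 1 was the lowest library, and the *Zeb1 200H* libraries all lay above WT replicate 4, the highest of WT. MiR-124-3p.2 measured 175, 274, and 316 CPM in WT and 777, 779.9, 863, and 867 CPM in *Zeb1 200H*, in the same arrangement. Their log2 fold changes were 1.71 and 1.38, and 1.48 and 1.35 without WT replicate 1. MiR-124-5p, the passenger arm, measured 1.05, 0.833, and 1.44 CPM in WT and 3.70, 4.02, 2.88, and 2.57 CPM in *Zeb1 200H*, separate but close to the floor. It was called without WT replicate 1 (1.43, adjusted p = 0.0177 by Benjamini-Hochberg in edgeR) and not with it (adjusted p = 0.0662).

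The list of neuronal miRNAs had 29 members, 19 of them tested, with 2 higher (10.5%, compared with 1.64% of all tested miRNAs). Its median log2 fold change was 0.24, and the 2 were the miR-124-3p reads. For 10 of the 19 all *Zeb1 200H* libraries were above all WT libraries in CPM, compared with 28.4% of all tested miRNAs. After division by the TMM factors this held for 6, compared with 14.3% of all. Without WT replicate 1, 20 were tested, 8 were higher (40%) and 2 lower (10%), compared with 10.6% and 11% of all tested miRNAs, and the median was 0.21. Those added on the higher side, named after their values were seen, were miR-124-5p, miR-9-5p (0.53), miR-9-3p (0.48), miR-135a-5p (0.21), miR-135b-5p (0.64), and miR-488-3p (0.66). MiR-129-1/2-3p (−0.27) and miR-218-5p (−0.23), also neuronal, were on the lower side. With a further library left out, miR-135a-5p was not called without *Zeb1 200H* replicate 1 or 4 (adjusted p = 0.115 and 0.108), miR-9-3p without *Zeb1 200H* replicate 2 (0.0531), and miR-218-5p without *Zeb1 200H* replicate 1, 2, or 3 (0.0925, 0.0806, and 0.0559, Benjamini-Hochberg in edgeR). DESeq2 without WT replicate 1 did not call miR-135a-5p (Benjamini-Hochberg adjusted p = 0.0594).

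A shorter list of 8 neuron markers, whose most abundant member was miR-153-3p, summed to 6357, 8827, and 9282 CPM in WT and 12828, 13075, 13427, and 14051 CPM in *Zeb1 200H*. All *Zeb1 200H* libraries were higher than all WT libraries. Of the 8, 2 were called higher, the miR-124-3p reads, compared with 1.64% of all tested miRNAs. With WT replicate 1 left out, 3 of the 8 were called higher and 1 lower, compared with 10.6% and 11% of all tested miRNAs. The lower one, miR-218-5p, was not called if *Zeb1 200H* replicate 1, 2, or 3 was also left out (adjusted p from 0.0559 to 0.0925, Benjamini-Hochberg in edgeR). The 3 oligodendrocyte markers, led by miR-338-3p, summed to 459, 611, and 604 CPM in WT and 753, 811, 788, and 766 CPM in *Zeb1 200H*, also separate, with 0 called among the 2 that edgeR tested (1 at an unadjusted p below 0.05), 0 by DESeq2, and 1 by limma. After division by the TMM factors the neuron sum stayed separate and the oligodendrocyte sum overlapped. Within the latter miR-338-3p was separate and was called without WT replicate 1 (0.31), whereas miR-219a-5p overlapped, at 188, 145, and 133 CPM in WT and 142, 168, 133, and 137 CPM in *Zeb1 200H*. No marker of either list was at 0 in any of the 7 libraries. The pituitary includes a neural lobe next to its endocrine lobes, and the part of these cell types in the result was not tested.

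The miR-34 and miR-449 family, known as targets of p53 and from ciliated epithelium, was the other family with several increases. The 3p arms of miR-34b and miR-34c are shown because they share the seed AUCACUA, the sole called higher family among the 78 tested families with at least 2 counted members.
miR-34b-3p: aAUCACUAacuccacugccauc
miR-34c-3p: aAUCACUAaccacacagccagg

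MiR-34b-3p measured 14.4, 22.9, and 25.4 CPM in WT and 51.7, 52.0, 44.6, and 53.6 CPM in *Zeb1 200H*, with WT replicate 1 lowest and no overlap. It rose by 0.96 (SE 0.150, adjusted p = 0.00562 by Benjamini-Hochberg in edgeR). MiR-34c-3p measured 18.3, 16.4, and 17.7 CPM in WT, where the 3 libraries were close, and 36.7, 42.0, 33.5, and 29.4 CPM in *Zeb1 200H*. It was called without WT replicate 1, with 0.93. The family sum was 32.7, 39.2, and 43.1 CPM in WT and 88.4, 93.9, 78.2, and 82.9 CPM in *Zeb1 200H*, so all *Zeb1 200H* libraries were above all WT libraries. The AUCACUA family rose by 0.82 (SE 0.157, adjusted p = 0.0226 by Benjamini-Hochberg in edgeR), and by 0.93 without WT replicate 1. That call was lost without WT replicate 2, WT replicate 4, or any 1 *Zeb1 200H* library (adjusted p from 0.0633 to 0.1 by Benjamini-Hochberg in edgeR).

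Of the guide arms, miR-34c-5p measured 81.2, 215, and 183 CPM in WT and 448, 332, 305, and 449 CPM in *Zeb1 200H*. The groups were separate, and WT replicate 1 was again low. Its increase of 1.00 (SE 0.234, adjusted p = 0.0487 by Benjamini-Hochberg in edgeR) was lost without WT replicate 4 or any 1 *Zeb1 200H* library (adjusted p from 0.0839 to 0.164, Benjamini-Hochberg in edgeR). MiR-34b-5p measured 17.0, 155, and 143 CPM in WT and 338, 250.2, 252, and 378 CPM in *Zeb1 200H*. Its WT replicate 1 value was a small fraction of the other WT values, and it was called without that library (0.90, adjusted p = 0.00136 by Benjamini-Hochberg in edgeR). *Mir34c* and *Mir34b* lie together on the minus strand of chromosome 9, from 51103034 to 51103645, and 3 arms from there were tested by coordinates, of which 1 was higher with all libraries and 3 without WT replicate 1. These counts lack miR-34c-5p, which was called higher in both cases. By name, the family list had 7 tested members of 11, 2 higher, and a median of 0.66. Leaving out WT replicate 1 made 4 of them higher, with a median of 0.82. Among all tested miRNAs, 1.64% were higher with all libraries and 10.6% without WT replicate 1.

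MiR-298 and miR-296 come from the imprinted *Gnas* locus, on the minus strand of chromosome 2 from 174267047 to 174267585. MiR-298-5p measured 80.2, 115, and 137 CPM in WT and 266, 244, 287, and 288 CPM in *Zeb1 200H*, with every *Zeb1 200H* library above every WT library. It rose by 0.98 (SE 0.143, adjusted p = 0.00388 by Benjamini-Hochberg in edgeR), and by 0.98 without WT replicate 1. All 4 arms of the locus were separate on the higher side, compared with 28.4% of all tested miRNAs. After division by the TMM factors 2 were, compared with 14.3% of all. Of the 4, 1 was called with all libraries, where 1.64% of all tested miRNAs were higher. Without WT replicate 1, where 10.6% of all tested miRNAs were higher, 2 were called. The second was miR-296-3p, at 0.63, which was named after its value was seen.

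MiR-326-3p and miR-330-5p are shown because they share the seed CUCUGGG but come from hairpins at separate places of chromosome 7. *Mir326* spans 99552269 to 99552363 and *Mir330* spans 19181465 to 19181562, both on the plus strand.
miR-326-3p: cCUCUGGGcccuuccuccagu
miR-330-5p: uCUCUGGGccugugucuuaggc

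MiR-326-3p measured 98.2, 164, and 199.7 CPM in WT and 302, 316, 312, and 345 CPM in *Zeb1 200H*, without overlap. Its log2 fold change of 0.75 was called (SE 0.141, adjusted p = 0.0181 by Benjamini-Hochberg in edgeR), but not without WT replicate 2 or any 1 *Zeb1 200H* library (adjusted p from 0.0647 to 0.0753, Benjamini-Hochberg in edgeR). As a family, CUCUGGG summed to 385, 459, and 486 CPM in WT and 787, 821, 763, and 888 CPM in *Zeb1 200H*. All *Zeb1 200H* libraries were higher. The family was called without WT replicate 1 (0.65, adjusted p = 5.57e-05 by Benjamini-Hochberg in edgeR) and not with all libraries (0.52, adjusted p = 0.0906 by Benjamini-Hochberg in edgeR).

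Lower in level, miR-344d-3p measured 3.93, 6.39, and 6.87 CPM in WT and 20.4, 20.4, 15.4, and 20.3 CPM in *Zeb1 200H*. All *Zeb1 200H* libraries exceeded all WT libraries, although *Zeb1 200H* replicate 3 was below its group. It rose by 1.42 (SE 0.190, adjusted p = 0.00244 by Benjamini-Hochberg in edgeR), and by 1.40 without WT replicate 1. It was the 1 called member of the 10 tested in the miR-344 family, a rodent group known from brain, whose median was 0.14. Among all tested miRNAs, 1.64% were higher.

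MiR-202-5p, known from gonads, measured 1.05, 1.85, and 0.775 CPM in WT and 5.45, 3.61, 4.26, and 4.56 CPM in *Zeb1 200H*. MiR-3544-3p measured 0.524, 2.04, and 1.33 CPM in WT and 4.97, 3.92, 4.56, and 5.85 CPM in *Zeb1 200H*. MiR-582-5p measured 4.72, 11.2, and 11.0 CPM in WT and 18.0, 20.4, 23.8, and 27.1 CPM in *Zeb1 200H*. All 3 were scarce and separate, with the *Zeb1 200H* libraries higher. Their log2 fold changes were 1.55, 1.50, and 1.01, and 1.59, 1.36, and 0.88 without WT replicate 1. The calls of miR-202-5p and miR-3544-3p were lost without WT replicate 4 or any 1 *Zeb1 200H* library (adjusted p from 0.0866 to 0.164 and from 0.0572 to 0.131, Benjamini-Hochberg in edgeR). That of miR-582-5p was lost without any 1 library other than WT replicate 1 (adjusted p from 0.0700 to 0.134, Benjamini-Hochberg in edgeR).

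MiR-328-3p, by contrast, was abundant, with 793, 1331, and 1453 CPM in WT and 2019, 2183, 2015, and 2107 CPM in *Zeb1 200H*. Its groups were separate, and its log2 fold change of 0.50 was the smallest among the 11 increases. The call (SE 0.117, adjusted p = 0.0487 by Benjamini-Hochberg in edgeR) was lost without any 1 library other than WT replicate 1 (adjusted p from 0.104 to 0.164).

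Among the decreases outside the epithelial miRNAs, the miR-181 family was the most abundant. Its 4 guides are shown because they share the seed ACAUUCA and the family was called as a sum. MiR-181 is widely expressed and is known from lymphocytes and brain.
miR-181a-5p: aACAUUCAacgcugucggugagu
miR-181b-5p: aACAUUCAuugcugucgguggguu
miR-181c-5p: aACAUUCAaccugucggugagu
miR-181d-5p: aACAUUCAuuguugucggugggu

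MiR-181a-5p measured 10045, 6854, and 7071 CPM in WT and 4577, 4299, 3463, and 4697 CPM in *Zeb1 200H*. WT replicate 1 was the highest library, and all WT libraries were above all *Zeb1 200H* libraries. MiR-181b-5p measured 1903, 1886, and 1859 CPM in WT and 1337, 1263, 992, and 1449 CPM in *Zeb1 200H*, where *Zeb1 200H* replicate 3 was the lowest. The log2 fold changes were −1.35 and −0.96, and −0.84 and −0.70 without WT replicate 1. Both calls were lost without any 1 *Zeb1 200H* library, with adjusted p from 0.116 to 0.139 and from 0.0932 to 0.128 (Benjamini-Hochberg in edgeR).

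The ACAUUCA sum was 13833, 10148, and 10375 CPM in WT and 7229, 6715, 5765, and 7459.7 CPM in *Zeb1 200H*, again separate. It fell by 1.18 (SE 0.269, adjusted p = 0.0478 by Benjamini-Hochberg in edgeR), and by 0.73 without WT replicate 1. The family's call was lost without any 1 *Zeb1 200H* library (adjusted p from 0.133 to 0.162, Benjamini-Hochberg in edgeR). Counting both arms, the miR-181 list had 7 tested members of 10, with 2 lower (28.6%, compared with 3.42% of all tested miRNAs) and a median of −0.69. Without WT replicate 1, 5 were lower, compared with 11% of all tested miRNAs, with a median of −0.61, and miR-181c-5p, at 1161, 972, and 979.6 CPM in WT and 903, 780.2, 876, and 855 CPM in *Zeb1 200H*, was among them. Another, miR-181c-3p, was lost if *Zeb1 200H* replicate 2 or 4 was also left out (adjusted p = 0.0504 and 0.0661, Benjamini-Hochberg in edgeR).

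Several other decreases came from imprinted loci. MiR-335 is encoded in an intron of the imprinted gene *Mest*, at 30741299 to 30741396 of chromosome 6, plus strand, and its arms are shown because they were called under different settings.
miR-335-5p: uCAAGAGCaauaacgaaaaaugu
miR-335-3p: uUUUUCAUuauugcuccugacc

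MiR-335-5p, the abundant arm, measured 23384, 15970.4, and 16482 CPM in WT and 11241, 10916, 12242, and 11378 CPM in *Zeb1 200H*. All *Zeb1 200H* libraries were lower, and WT replicate 1 was far above the rest. It was not called with all libraries (−1.14, adjusted p = 0.0652 by Benjamini-Hochberg in edgeR), and it fell without WT replicate 1 (−0.63, adjusted p = 3.00e-05 by Benjamini-Hochberg in edgeR). MiR-335-3p measured 926, 1279, and 1207 CPM in WT and 758, 776, 928, and 769 CPM in *Zeb1 200H*. Here WT replicate 1 was the lowest WT library and *Zeb1 200H* replicate 3 slightly exceeded it, so the groups overlapped in CPM, but not after division by the TMM factors. Its decrease of 0.83 (adjusted p = 0.0105 by Benjamini-Hochberg in edgeR) was lost without *Zeb1 200H* replicate 1, 2, or 4 (adjusted p from 0.0575 to 0.0650).

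The imprinted region between *Dlk1* and *Dio3* on chromosome 12 holds one of the largest groups of miRNA hairpins in the mouse. MiR-679-5p, from 109715577 to 109715650 on its plus strand, measured 29.3, 22.5, and 19.6 CPM in WT and 11.4, 9.28, 7.34, and 12.5 CPM in *Zeb1 200H*, with no overlap. MiR-494-3p, from 109715318 to 109715402, measured 147, 278, and 306 CPM in WT and 189, 206, 157, and 184 CPM in *Zeb1 200H*. WT replicate 1 had the lowest miR-494-3p of all libraries in CPM, while WT replicates 2 and 4 had the highest, and after division by the TMM factors all WT libraries were above all *Zeb1 200H* libraries. The decreases were 1.63 and 0.69, and the calls were lost without any 1 *Zeb1 200H* library (adjusted p from 0.0753 to 0.111 and from 0.0961 to 0.130, Benjamini-Hochberg in edgeR). MiR-494-3p was lost without WT replicate 2 or 4 as well, within the same range.

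These were the 2 calls among 68 tested members of the miR-379 to miR-410 list, of 78 in all (2.94% lower, compared with 3.42% of all tested miRNAs), whose median was −0.08. Without WT replicate 1, the list had 8 higher (11.8%) and 12 lower (17.6%), compared with 10.6% and 11% of all tested miRNAs, and a median of −0.15. The higher ones included both arms of miR-544, and miR-541-5p was among the lower ones. The arms of miR-544 are shown because they had the largest increases within this list without WT replicate 1.
miR-544-3p: aUUCUGCAuuuuuagcaagcuc
miR-544-5p: uCUUGUUAaaaagcagagucu

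MiR-544-3p measured 24.9, 196, and 191 CPM in WT and 463, 488, 469, and 471 CPM in *Zeb1 200H*. MiR-544-5p measured 1.57, 23.3, and 15.4 CPM in WT and 42.9, 43.1, 46.8, and 46.5 CPM in *Zeb1 200H*. For both arms WT replicate 1 was far below the other WT libraries, which were in turn below every *Zeb1 200H* library. Their log2 fold changes without WT replicate 1 were 1.16 and 1.07 (adjusted p = 2.03e-07 and 4.68e-04, Benjamini-Hochberg in edgeR), and neither was called with all libraries. MiR-541-5p measured 4223, 3679, and 3807 CPM in WT and 3022, 3234, 2823, and 2980.2 CPM in *Zeb1 200H*, separate on the lower side. It was called without WT replicate 1, at −0.44.

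MiR-670, from 94261300 to 94261399 on the minus strand of chromosome 2, was the remaining decrease. MiR-670-3p measured 81.7, 68.8, and 66.8 CPM in WT and 36.7, 42.6, 39.5, and 48.6 CPM in *Zeb1 200H*. MiR-670-5p measured 21.5, 18.5, and 20.5 CPM in WT and 11.5, 11.2, 10.3, and 13.0 CPM in *Zeb1 200H*. Both arms were separate, with log2 fold changes of −1.19 and −1.17, and −0.83 and −0.89 without WT replicate 1. Both calls were lost without any 1 *Zeb1 200H* library (adjusted p from 0.0910 to 0.128 and from 0.0887 to 0.111, Benjamini-Hochberg in edgeR).

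Seed families were also tested as sums of counts, with seeds read from the RefSeq sequences of 1596 of the 1909 miRNAs and each of the others counted alone. Of 586 families tested, 24 were called (4.1%), 6 higher and 18 lower. Leaving out *Zeb1 200H* replicate 1 or replicate 2 gave 15 each. Without WT replicate 1, 613 were tested and 129 called (21%), 66 higher and 63 lower. Of the 78 families with at least 2 counted members, 5 were called, which were the 3 miR-200 families and the miR-181 family on the lower side and the family of miR-34b-3p and miR-34c-3p on the higher. Leaving out WT replicate 1 gave 20 such calls, 3 higher and 17 lower.

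The miR-29 family, whose targets include mRNAs of the extracellular matrix, was among the families added on the higher side. Its members are shown because they share a seed but differed in their calls.
miR-29a-3p: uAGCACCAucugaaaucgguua
miR-29b-3p: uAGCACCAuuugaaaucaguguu
miR-29c-3p: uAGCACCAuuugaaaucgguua

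The AGCACCA sum was 62969.9, 101145, and 97705 CPM in WT and 132998, 126817, 134547, and 129343 CPM in *Zeb1 200H*. WT replicate 1 was lowest and every *Zeb1 200H* library exceeded every WT library. It was called without WT replicate 1 (0.26, adjusted p = 0.00815 by Benjamini-Hochberg in edgeR) and not with all libraries (0.26, adjusted p = 0.296, Benjamini-Hochberg in edgeR). Most abundant on average over the 7 libraries was miR-29b-3p, with 18298, 39405, and 36774 CPM in WT and 57633, 53844, 59387, and 56088 CPM in *Zeb1 200H*, which rose by 0.45 without WT replicate 1. MiR-29c-3p was called there too, at 0.20, but not if *Zeb1 200H* replicate 1 or 4 was also left out (adjusted p = 0.0788 and 0.0911, Benjamini-Hochberg in edgeR), nor by DESeq2 without WT replicate 1 (Benjamini-Hochberg adjusted p = 0.0642). MiR-29a-3p had 0.11 without WT replicate 1 and was not called.

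On the lower side, families added without WT replicate 1 included families of the miR-17-92 cluster, known from proliferating cells. The GUGCAAA family of miR-19b-3p and miR-19a-3p had a log2 fold change of −0.05 with all libraries and −0.50 without WT replicate 1 (adjusted p = 1.67e-04 by Benjamini-Hochberg in edgeR). Its main member, miR-19b-3p, measured 308, 2394, and 2688 CPM in WT and 2012, 2052, 1852, and 1965 CPM in *Zeb1 200H*. WT replicate 1 lay far below every other library, and WT replicates 2 and 4 lay above all *Zeb1 200H* libraries. The AAAGUGC family of miR-17, miR-20, miR-93, and miR-106 had −0.30 without WT replicate 1, and the CAGUGCA family of miR-148 and miR-152 had −0.37. Of the 21 tested arms in the list of the miR-17-92 and miR-106b-25 clusters, 0 were called by edgeR with all libraries (2 at an unadjusted p below 0.05, 0 by DESeq2, and 6 by limma, median −0.21) and 8 were lower without WT replicate 1 (median −0.37), compared with 11% of all tested miRNAs. If *Zeb1 200H* replicate 1, 2, 3, or 4 was also left out, 7, 7, 7, and 5 were lower, and miR-17-5p was lost each time (adjusted p from 0.0750 to 0.107, Benjamini-Hochberg in edgeR).

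Hairpins yield an arm on each side, so the arms of a hairpin can be compared. Of the 207 hairpins with both arms tested, 16 had a call. In 6 of these both arms were called in the same direction, and in 10 a single arm was called. Leaving out WT replicate 1 gave 75 with a call. In 29 both arms moved the same way, and in 46 a single arm was called. By edgeR no hairpin had its arms called in opposite directions in either case.

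By genomic position, with hairpins of the same strand within 10 kb joined, 49 clusters had a tested arm and 8 had a call. Some of the 49 are a single hairpin with 2 entries at the same place, such as *Mir202* and *Mirlet7b*. Arms encoded at more than 1 place are not in these counts, among them miR-181a-5p and miR-181b-5p, which were called lower. In 4 of the 8 every tested arm was called, which were both miR-200 clusters, that of miR-183, and *Mir202*, which had 1 tested arm. When WT replicate 1 was left out, 19 had a call. Calls in both directions occurred in 2, both in the imprinted region of chromosome 12. *Mir379* to *Mir3072*, from 109709060 to 109747960, held 36 hairpins and 58 tested arms. Of these arms, 5 were higher and 11 lower, compared with 10.6% and 11% of all tested miRNAs. The 2 arms of miR-544 lie within this span but are not in these counts, since 28 of the 536 tested miRNAs with a mature entry, among them these 2, had no hairpin entry. *Mir770* to *Mir136*, from 109563692 to 109595388, had 2 higher and 1 lower of 24 tested arms. *Mir17* to *Mir92-1* on chromosome 14 had 4 lower of 9 tested arms, and *Mir25* to *Mir106b* on chromosome 5 had 2 lower of 6. Among all tested miRNAs, 11% were lower in that setting.

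The share of called miRNAs is given by class of mean CPM, and differences between classes were not tested. Of the 224 tested miRNAs with a mean below 10 CPM, 2 were higher and 2 lower (1.79%). Of the 172 between 10 and 100 CPM, 3 were higher and 7 lower (5.81%), and of the 175 between 100 and 1000 CPM, 4 were higher and 6 lower (5.71%). The 79 between 1000 and 10000 CPM had 2 higher and 6 lower (10.1%). The 22 above 10000 CPM had 2 lower (9.09%), which were miR-200c-3p and miR-141-3p. These 22 took 74.0% of the reads of WT replicate 1 and between 64.0% and 66.5% of those of the other 6 libraries.

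**Figure D2:**
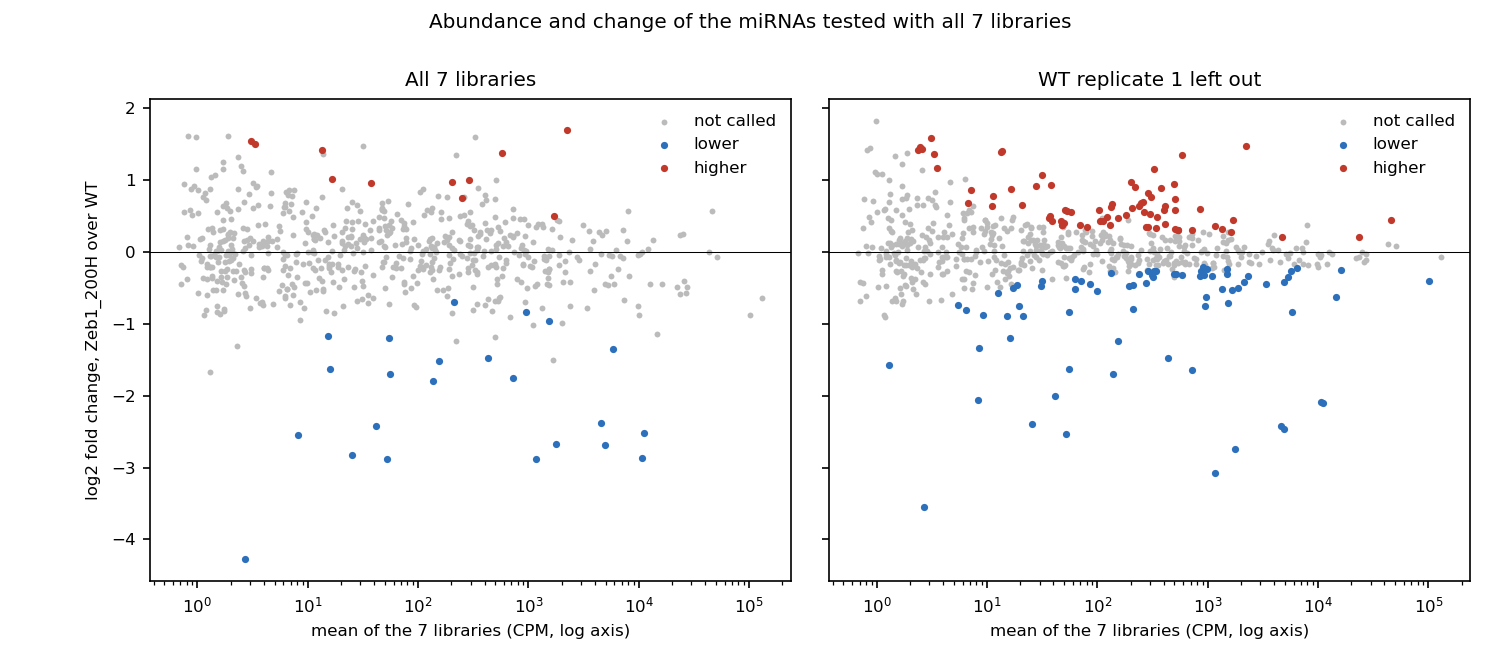
Log2 fold change between *Zeb1 200H* and WT plotted over mean CPM (log axis) for the 672 miRNAs tested with all 7 libraries, fitted with all of them on the left and with WT replicate 1 left out on the right. Called miRNAs are coloured, 34 on the left and more on the right, and lie on both sides of 0.

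Leaving out WT replicate 1 lowered the SE in 4 of the 5 classes. The median SE of the log2 fold change went from 0.228 to 0.0667 above 10000 CPM, from 0.199 to 0.0783 between 1000 and 10000 CPM, and from 0.198 to 0.0893 between 100 and 1000 CPM. Between 10 and 100 CPM it went from 0.247 to 0.142, and below 10 CPM it stayed close, at 0.377 and 0.393. The share called without WT replicate 1 was 6.37% below 10 CPM, 23.3% from 10 to 100 CPM, and 36% from 100 to 1000 CPM. It was 31.6% from 1000 to 10000 CPM, with 6 higher and 19 lower, and 31.8% above 10000 CPM, with 2 higher and 5 lower. Increases outnumbered decreases between 100 and 1000 CPM, with 37 against 26, and the reverse held in both more abundant classes.

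The 117 calls that were added when WT replicate 1 was left out comprised 63 higher and 54 lower. For 55 of the 63, all *Zeb1 200H* libraries were above all WT libraries in CPM even with WT replicate 1 counted. For 11 of the 54 lower, the groups were separate in that way on the lower side. Of all tested miRNAs, 28.4% and 4.76% were separate in this way. After division by the TMM factors this held for 41 of the 63 higher and for 27 of the 53 lower that were tested with all libraries. The shares of all tested miRNAs were then 14.3% and 11.6%. The calls were made on the same libraries other than WT replicate 1, so the separation is no independent support for them. By CPM, in the other 43 lower, WT replicate 1 lay below WT replicates 2 and 4 and reached the *Zeb1 200H* libraries. In 43 of the 63 higher, WT replicate 1 lay below both other WT libraries as well. Of the 117, 83 (52 higher and 31 lower) were also called when any 1 *Zeb1 200H* library was left out in addition.

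**Figure D3:**
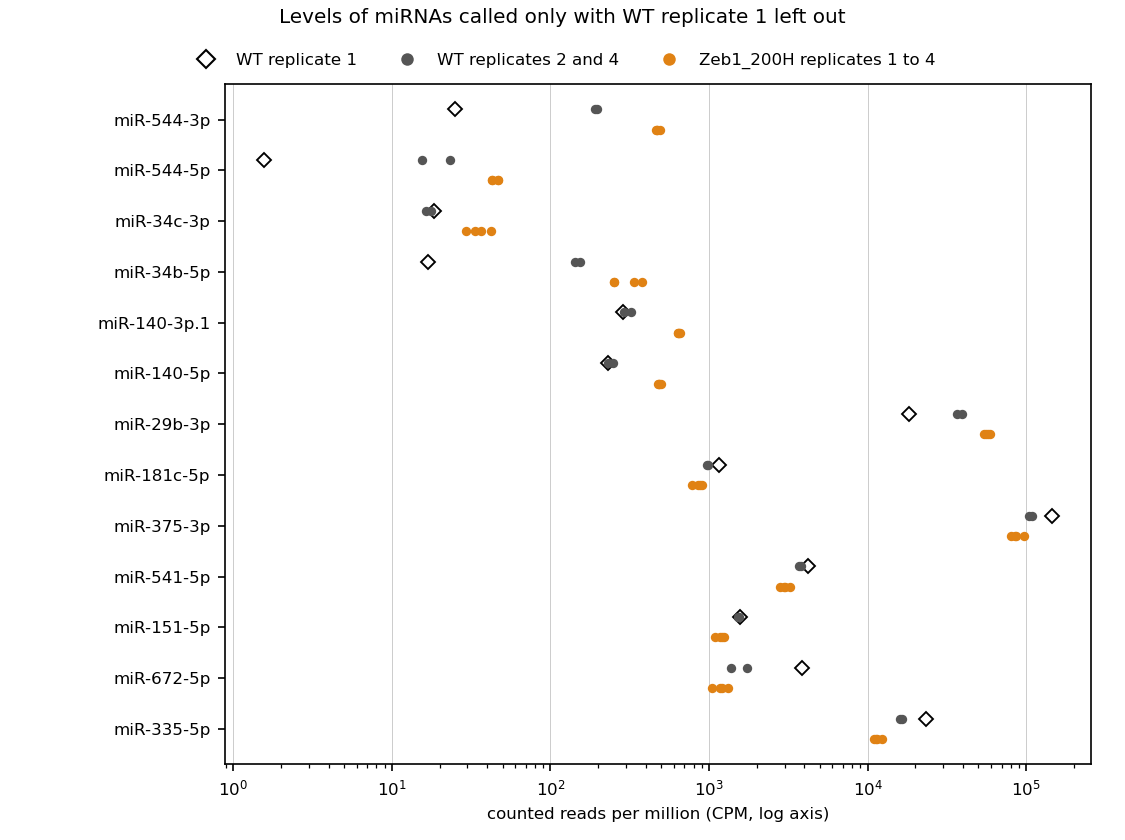
CPM (log axis) in each library of miRNAs that were called when WT replicate 1 was left out and not with all 7 libraries, with 1 symbol per library. WT replicate 1 of miR-544-3p lies at 24.9 CPM, and the other WT libraries of it at 196 and 191 CPM.

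Some added calls had a WT replicate 1 close to the other WT libraries in CPM. MiR-140-5p, from a hairpin in the gene *Wwp2* and known from cartilage, measured 230.3, 232, and 247 CPM in WT and 478, 486, 495, and 486 CPM in *Zeb1 200H*. MiR-140-3p.1, from the other arm, measured 288, 289.8, and 321 CPM in WT and 641, 654, 634, and 647 CPM in *Zeb1 200H*. For both, in CPM, the WT libraries were nearly equal, the *Zeb1 200H* libraries were nearly equal, and the groups were far apart. Division by the TMM factors, which the fold changes include, puts WT replicate 1 above the other WT libraries. MiR-140-3p.1 had 0.73 with all libraries (adjusted p = 0.0544 by Benjamini-Hochberg in edgeR) and 0.95 without WT replicate 1 (adjusted p = 1.11e-06 by Benjamini-Hochberg in edgeR). MiR-140-5p had 0.67 and 0.89 in the same order.

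MiR-151-5p measured 1561, 1523, and 1552 CPM in WT and 1214, 1250.5, 1086, and 1168 CPM in *Zeb1 200H*, lower in every *Zeb1 200H* library. It had −0.77 with all libraries and was called at −0.51 without WT replicate 1. MiR-672-5p, from the X chromosome, measured 3881, 1375, and 1743 CPM in WT and 1173, 1324, 1047, and 1199 CPM in *Zeb1 200H*. WT replicate 1 was far above all other libraries, and the log2 fold change went from −1.51 to −0.52 without it, where it was called. Of the scarce miRNAs, miR-802-5p, miR-216a-3p, and miR-1a-3p were called higher without WT replicate 1, at 1.46, 1.44, and 1.41, and miR-3088-3p lower, at −1.57. MiR-3088-3p was lost if *Zeb1 200H* replicate 1 was also left out (adjusted p = 0.0649, Benjamini-Hochberg in edgeR). It reached the filter's 1.01 CPM in both WT libraries kept and in 1 *Zeb1 200H* library, and DESeq2 gave it no adjusted p. MiR-1a-3p was not called by DESeq2 without WT replicate 1 (Benjamini-Hochberg adjusted p = 0.0819).

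**Figure D4:**
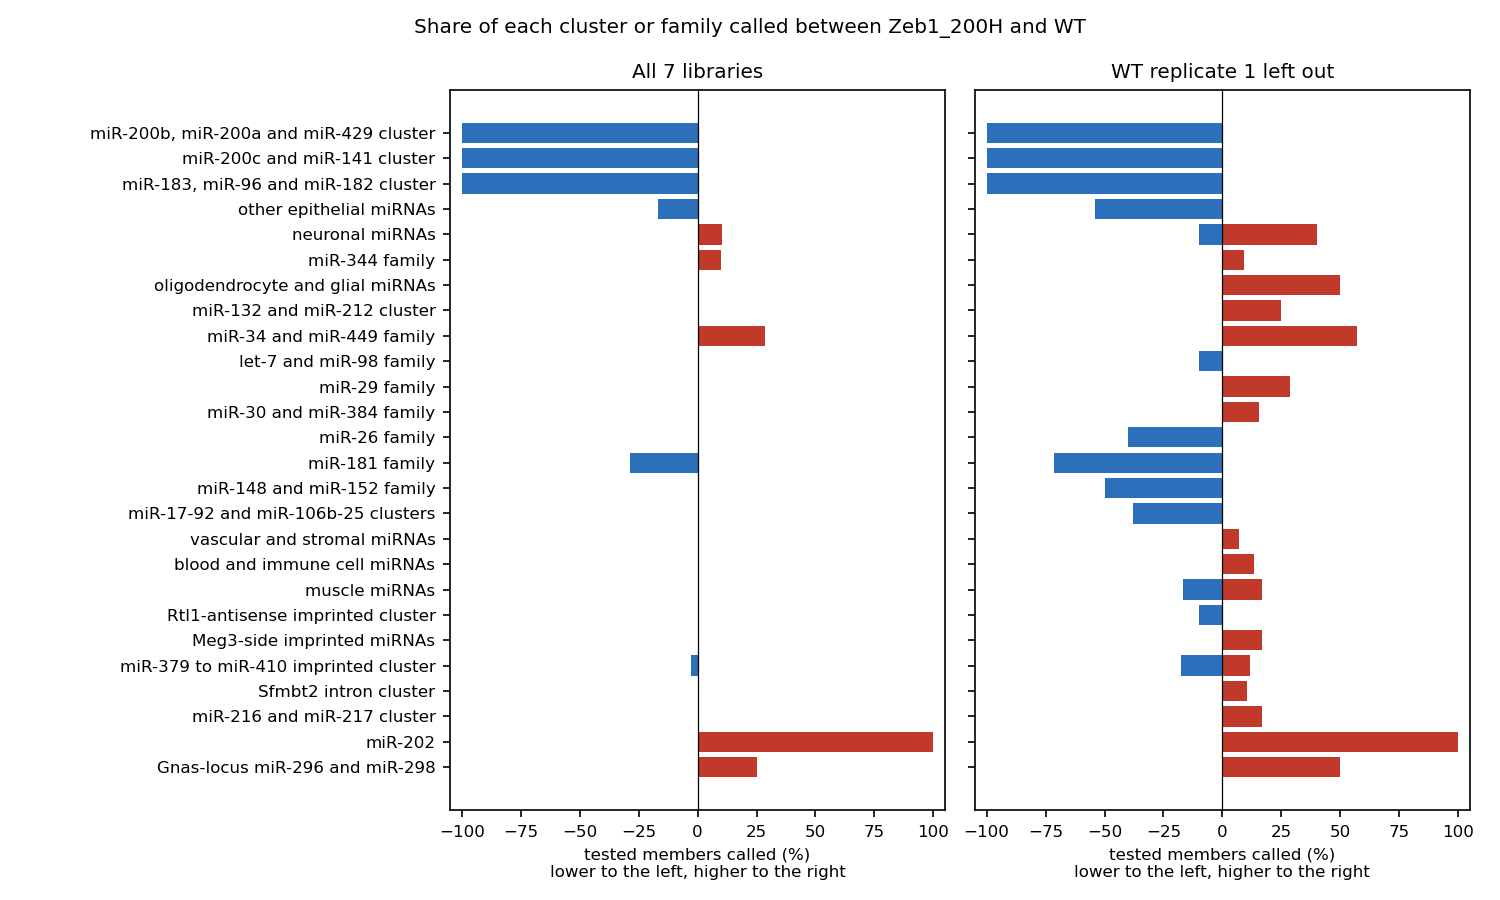
Share of tested members called in each list with a call in at least 1 of the 2 cases (%, lower to the left and higher to the right), with all 7 libraries and with WT replicate 1 left out. All tested arms of the miR-200 clusters are called lower in both cases, and the neuronal list has 2 calls in the first and 10 in the other.

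Among abundant families of the pituitary, the miR-7, let-7, miR-30, and miR-125 lists had 0 calls by edgeR with all libraries. At an unadjusted p below 0.05 they had 0, 1, 2, and 0, DESeq2 called 0, 0, 1, and 0, and limma 0, 1, 2, and 0. Of the 20 tested let-7 and miR-98 members, 2 were lower without WT replicate 1, compared with 11% of all tested miRNAs, which were let-7b-5p (−0.25) and let-7b-3p (−0.38). The first was lost if *Zeb1 200H* replicate 3 or 4 was also left out (adjusted p = 0.0571 and 0.0659), and the second if *Zeb1 200H* replicate 1 was (0.0670, Benjamini-Hochberg in edgeR). Of the 13 tested miR-30 and miR-384 members, 2 were higher, compared with 10.6% of all, which were miR-384-5p (0.60) and miR-384-3p (0.58). These 4 were named after their values were seen. The miR-7 list kept 0 of 5 by edgeR and DESeq2 (0 at an unadjusted p), with a median of −0.09, and the list of miR-125, miR-99, and miR-100 kept 0 of 11 by both (2 at an unadjusted p), although edgeR called 1 higher if *Zeb1 200H* replicate 3 was also left out. The cluster in an intron of *Sfmbt2* had 47 tested members with a median of 0.18. For 22 of them all *Zeb1 200H* libraries were above all WT libraries in CPM, compared with 28.4% of all tested miRNAs. After division by the TMM factors this held for 12 (25.5%), compared with 14.3% of all. Of the 47, 0 were called by edgeR with all libraries (7 at an unadjusted p, 0 by DESeq2, and 6 by limma), and 5 of 48 were higher without WT replicate 1 (10.4%, compared with 10.6% of all tested miRNAs), or 3 if *Zeb1 200H* replicate 4 was also left out.

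The lists described next also had 0 calls by edgeR with all libraries, and their calls without WT replicate 1 compare with 10.6% higher and 11% lower among all tested miRNAs. Of the 5 tested members of the miR-26 family (1 at an unadjusted p, 1 by DESeq2, and 2 by limma), 2 were lower without WT replicate 1. These were miR-26b-3p, lost if *Zeb1 200H* replicate 2, 3, or 4 was also left out (adjusted p = 0.0718, 0.0568, and 0.0841, Benjamini-Hochberg in edgeR), and miR-26b-5p, lost without *Zeb1 200H* replicate 4 (adjusted p = 0.0947, Benjamini-Hochberg in edgeR). The miR-148 and miR-152 family (2 of 6 at an unadjusted p, 2 by DESeq2, and 4 by limma) had 3 lower in that setting, or 2 if *Zeb1 200H* replicate 4 was also left out. The 12 tested miRNAs on the *Meg3* side of the imprinted region (2 lower at an unadjusted p, 0 by DESeq2, and 2 higher by limma) had 2 higher. DESeq2 without WT replicate 1 called 2 of them higher and 2 lower. Of the 4 arms of miR-132 and miR-212 (2 at an unadjusted p, 0 by DESeq2, and 2 by limma), 1 was higher. If *Zeb1 200H* replicate 3 was also left out 2 were higher, and if replicate 2 was, 1 was higher and 1 lower. Of the 6 of miR-216 and miR-217 (3 at an unadjusted p, 0 by DESeq2, and 2 by limma) 1 was higher, or 3 if *Zeb1 200H* replicate 2 was also left out. The lists of miR-15, miR-16, and miR-195 and of miR-23, miR-27, and miR-24 had 0 calls without WT replicate 1 too by edgeR and DESeq2, with 3 of 15 and 0 of 11 at an unadjusted p in edgeR.

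Lists of cell type markers were summed in each library to describe the tissue. The 5 endocrine and epithelial markers, led by miR-7a-5p, a miRNA of pituitary and islet endocrine cells, summed to 397479, 297518, and 300152 CPM in WT and 270965, 259139, 284616, and 270561 CPM in *Zeb1 200H*. These endocrine markers of the labelled tissue were thus abundant in every library. The *Zeb1 200H* sums were all below the WT sums. Of the 5, 3 were called lower without WT replicate 1, compared with 11% of all tested miRNAs. With all libraries 2 were, miR-200b-3p and miR-141-3p, compared with 3.42%. Without those 2, the sums were 368951, 269425, and 273145 CPM in WT and 264186, 253180, 277444, and 264282 CPM in *Zeb1 200H*, which overlapped, although after division by the TMM factors all *Zeb1 200H* sums were lower. MiR-7b-5p was higher in every *Zeb1 200H* library, at 40528, 48175, and 47454 CPM in WT and 57160.2, 52143, 55449.6, and 56478 CPM in *Zeb1 200H*, but overlapped after division by the TMM factors and was not called. The 2 endothelial markers, led by miR-126a-3p.1, summed to 5577, 4742, and 4059 CPM in WT and 5509, 5726, 5099, and 5181 CPM in *Zeb1 200H*, which overlapped. The 4 markers of smooth muscle and stroma, led by miR-143-3p, summed to 2075, 2626, and 2676 CPM in WT and 4059, 3573, 2450.5, and 3884 CPM in *Zeb1 200H*. *Zeb1 200H* replicate 3 fell within the WT range and the other *Zeb1 200H* libraries were higher in CPM.

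Markers of blood cells were detected in all libraries. The 3 red cell markers, led by miR-451a, summed to 5269, 7706, and 9724 CPM in WT and 8549, 18724, 10899.8, and 9987 CPM in *Zeb1 200H*, with *Zeb1 200H* replicate 2 the highest. The 6 white cell markers, led by miR-142a-3p.2, summed to 812, 1117, and 1276 CPM in WT and 1159, 1737, 1674, and 1434 CPM in *Zeb1 200H*, with overlap. The 3 muscle markers, led by miR-1a-3p, summed to 9.17, 14.1, and 6.42 CPM in WT and 27.7, 47.2, 14.6, and 23.5 CPM in *Zeb1 200H*, higher in *Zeb1 200H* but scarce, and overlapping after division by the TMM factors. The liver marker miR-122-5p measured 2.36, 4.53, and 4.98 CPM in WT and 7.60, 7.01, 7.93, and 7.83 CPM in *Zeb1 200H*. With all 7 libraries edgeR called 0 of the 18 tested among these vascular, stromal, blood, muscle, and liver markers (5 at an unadjusted p below 0.05), DESeq2 called 2, and limma 5. With WT replicate 1 left out, edgeR called 4 of the 18 higher, 2 of white cells and 1 each of stroma and muscle, compared with 10.6% of all tested miRNAs. If *Zeb1 200H* replicate 3 was also left out, 6 were higher, 2 each of white cells, stroma, and muscle. No marker was at 0 in any library, and their part in the result was not tested.

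*Zeb1 200M* mice of the same age carry the mutated allele on both chromosomes, which raises the question whether a second copy moves these miRNAs further. Their 4 libraries were compared with the 4 *Zeb1 200H* libraries without WT. Of 675 miRNAs tested by edgeR, 15 were called (2.22%), 5 higher and 10 lower in *Zeb1 200M*. The lower ones were 7 strands of the miR-200 superfamily, both miR-183-5p reads, and miR-34a-5p. The higher ones were both miR-124-3p reads, miR-202-5p, and both arms of miR-770, the latter named after their values were seen. MiR-200c-5p was lost without any 1 library other than *Zeb1 200M* replicate 4 (adjusted p from 0.0516 to 0.143, Benjamini-Hochberg in edgeR). MiR-124-3p.2 was lost without *Zeb1 200H* replicate 1 or 2 (adjusted p = 0.0516 and 0.0687, Benjamini-Hochberg in edgeR), and miR-124-3p.1 without these or *Zeb1 200M* replicate 1 (adjusted p from 0.0645 to 0.0930). The other 12 calls were kept whichever library was left out. A replicate block gave 14 calls, of which 13 were among the 15.

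MiR-200c-3p measured 1639, 1723, 1604, and 1715 CPM in *Zeb1 200M* replicates 1 to 4, all below the lowest *Zeb1 200H* library. The difference between the mutants was −1.24 (SE 0.0783, adjusted p = 1.14e-06 by Benjamini-Hochberg in edgeR). MiR-141-3p measured 2074, 1998, 1992, and 2167 CPM in *Zeb1 200M*, with a difference of −1.22. In the other cluster, miR-200b-3p measured 1487, 1332, 1345, and 1469 CPM. MiR-200a-3p measured 1403, 1278, 1350.5, and 1446 CPM. These too lay below all *Zeb1 200H* libraries, with differences of −0.51 and −0.47, and miR-429-3p differed by −0.82. On the higher side, miR-124-3p.1 measured 5653, 4622, 5717, and 3777 CPM in *Zeb1 200M*, all above *Zeb1 200H*, a difference of 0.55 (SE 0.116, adjusted p = 0.0239 by Benjamini-Hochberg in edgeR). Without *Zeb1 200H* replicate 1, *Zeb1 200H* replicate 2, or *Zeb1 200M* replicate 1 that difference was not called (adjusted p = 0.0736, 0.0930, and 0.0645, Benjamini-Hochberg in edgeR). MiR-202-5p measured 10.9, 11.9, 10.5, and 12.3 CPM in *Zeb1 200M*, also separate, a difference of 1.29 (adjusted p = 8.41e-04 by Benjamini-Hochberg in edgeR). The comparison shares its *Zeb1 200H* libraries with the comparison to WT, so the values are given side by side and no relation between them was computed.

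The difference of the genotype effect was also tested between this cohort and the older females of the breeding trial, aged 28 to 36 weeks, with 4 WT and 3 *Zeb1 200H* libraries. Those libraries held between 60037 and 191650 counted reads each. In 489 miRNAs tested by edgeR as an interaction of genotype and cohort, 0 were called (0%), 23 had an unadjusted p below 0.05, and the smallest Benjamini-Hochberg adjusted p was 0.645. DESeq2, added after seeing the data, called 0 of 1258 (31 at an unadjusted p). Leaving out WT replicate 1 of the virgin cohort, edgeR called 0 of 321 (21 at an unadjusted p) and DESeq2 0 of 1254 (27 at an unadjusted p). The count filter of edgeR depends on the median depth of the libraries, so its 2 fits covered different ranges of abundance. Leaving out WT replicate 2 or 4 of that cohort also gave 321 tested. In the older libraries 3 counts were between 15.7 and 50.0 CPM, which limits what the test can show for scarce miRNAs. Of the 34 called miRNAs, 29 could be tested.

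The effect on miR-200c-3p was −2.86 in the virgin and −2.31 in the older cohort, a difference of −0.56 (SE 0.415). For miR-200b-3p, the effects were −2.38 and −2.53, and for miR-205-5p they were −2.88 and −3.22. MiR-31-5p had −1.51 and −0.60, with a difference of −0.92 (SE 0.413). MiR-181a-5p had −1.35 and −0.55, with a difference of −0.81 (SE 0.344). When WT replicate 1 of the virgin cohort was left out, the difference was 0.23 (SE 0.148) for miR-200c-3p, of the other sign, −0.28 (SE 0.195) for miR-181a-5p, and −0.61 (SE 0.335) for miR-31-5p. By edgeR none of these was called in either case. The cohorts differ in age, breeding, RNA input, instrument, and dictionary, whose parts cannot be told apart.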

How the data were processed

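The authors sequenced small RNAs of 18 to 32 nt from 1 pituitary per library, trimmed adapters with cutadapt, assigned reads to miRNAs by their first 19 nt, and deposited raw counts, which were used here. The other 62 per-sample columns and the authors' fold changes were not used. Counts were tested in edgeR 4.0.16 under R 4.3.3 (minimum count 10, minimum total count 15, TMM, quasi-likelihood F test, Benjamini-Hochberg threshold 0.05), also summed by seed, between mutants, and as an interaction with cohort. Alternatives were DESeq2 1.42.0, limma 3.58.1, other filters and scalings, a replicate block, and leaving out libraries, with 3 more chosen after seeing the data. Names were chosen from all arms of both miR-200 clusters, the miR-183 cluster, miR-205, miR-31, and miR-124, all called miRNAs, the 10 most abundant, the 10 largest added changes in each direction, and the most abundant member of each list, not all of which are described. Others were chosen after their values were seen. Members and lists were chosen with earlier results of these data known. The code was tested on simulated data. The methods mention no collapsing of reads by the random bases of the adapters, so the levels given for 3 counts cover counting error only.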

Additional observations from a re-analysis of the deposited data

Results flagged for a closer look

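Among the 4 *Zeb1 200H* libraries, replicate 3 stood apart from the other 3 for 6 of the 81 named miRNAs and for 0 of the 9 marker lists, by its gap to the nearest library relative to the range. It was the highest for miR-429-3p, at 824 CPM, and for miR-335-3p, at 928 CPM. Its values of miR-344d-3p (15.4 CPM), let-7c-5p (23509 CPM), miR-151-3p (253 CPM), and miR-467a-5p (597 CPM) also lay apart. Chance gives such a value in about 1 of 20 groups of libraries. Without this library, the calls of miR-429-3p, miR-335-3p, and miR-344d-3p were kept.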

How the results depend on the processing

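Compared with 34 calls between *Zeb1 200H* and WT, the DESeq2 Wald test gave 66 (25 higher, 41 lower), the replicate block 18 (3 higher, 15 lower), a common fit with *Zeb1 200M* 67, limma voom with quality weights 152, and an adjusted p below 0.01 gave 21. Leaving out each library in turn gave 21 to 151. With WT replicate 1 left out, DESeq2 gave 158 and no filter 157, and leaving out each *Zeb1 200H* library as well, chosen after seeing the data, gave 133 to 163. The settings not named here gave 31 to 40. For the 24 families, DESeq2 gave 58, the replicate block 14, and leaving out each library 15 to 129. For miRNAs and families alike, the block against WT had no *Zeb1 200H* replicate 3, so its counts reflect both changes. The 15 calls between mutants ranged from 12 to 20. For the cohort difference, no filter gave 2 calls in place of 0 by edgeR, miR-411-5p (−1.13) and miR-672-5p (−1.19), each with a Benjamini-Hochberg adjusted p of 0.0259, and miR-411-5p was named after its value was seen. The cause of these differences was not tested.

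Of the 34, 18 were called in all 22 settings (3 higher, 15 lower), and miR-200c-5p, miR-298-5p, and miR-34b-3p were lost in the replicate block alone (adjusted p = 0.0702, 0.106, and 0.113, Benjamini-Hochberg in edgeR). That block also lacked *Zeb1 200H* replicate 3. Pairing by replicate number was checked with correlations that were not taken over the levels themselves. Those between WT and *Zeb1 200H* libraries of the same number ranged from −0.00360 to 0.122 and of different numbers from −0.109 to 0.0526. Between *Zeb1 200H* and *Zeb1 200M* they ranged from −0.00754 to 0.218 and from −0.150 to 0.134. The levels in log2 CPM had Pearson correlations from 0.954 to 0.989 between WT and *Zeb1 200H* libraries. Of the 117 calls added without WT replicate 1, 10 had the opposite sign in the fit of all 7 libraries, where they were not called. Among the 81 miRNAs chosen for description, the direction reversed in 2 cases. MiR-337-3p had −0.24 with the DESeq2 Wald test and WT replicate 1 left out (Benjamini-Hochberg adjusted p = 0.0454, up to 0.927 in its other settings). MiR-29a-3p ranged from −0.0637 to 0.114 when 1 library was left out, and had 0.15 without WT replicate 1 and *Zeb1 200H* replicate 2 (edgeR, Benjamini-Hochberg adjusted p = 0.0473, up to 0.995 in its other settings). Of 3282 values of named miRNAs under other settings, 2898 stayed on their side of the threshold, with 190 changes of sign between values that were not called, 113 lost a call, and 269 gained one. The lower depth of WT replicate 1 limits levels under 1 CPM.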
